A study of Homo sapiens with 9 samples.

Results

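RNA that co-precipitated with Neuropilin-1 (Nrp1) was compared with RNA of whole lysate of the same cell line. The comparison used 6 of the 9 libraries of the series, namely the 3 labelled Nrp1-IP and the 3 labelled Input, and every gene symbol of their count files except the HTSeq summary lines. All libraries came from SH-SY5Y, an established human neuroblastoma line that is widely used as a neuron-like cell. The labels name no genetic change and no added guidance cue, and all groups shared the same culture medium (DMEM high glucose with serum). For Nrp1-IP, lysate was incubated with magnetic beads that carried a rabbit antibody against Nrp1, and RNA was taken from the washed beads. Input was RNA of lysate without a pulldown, and the labels do not say which Input library belongs to which pulldown. The remaining 3 libraries (DCC-IP) came from beads with an antibody against DCC, and they are used below only to set values side by side. The material was 1 cell line, and the lysate had been cleared of nuclei and debris by centrifugation. No library of the series came from a control antibody, so background is not measured per gene here. The study reported co-precipitated RNA for both receptors and none for its IgG controls. The methods of the study describe its experiments in general as done in independent biological replicates. The labels of these libraries do not say whether they were separate cultures, and p-values measure only the spread between them, which may then be technical.

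Nrp1 is a cell-surface receptor for class 3 semaphorins such as Sema3A and, with plexins as signalling partners, it steers growing axons. Sema3A acts in part through protein synthesis inside the axon tip, and the study asked whether mRNAs associate with the receptor and which ones. A pulldown over lysate is a ratio of compositions. An mRNA with a larger share of the reads in Nrp1-IP than in Input is called higher here, which does not say that it bound the receptor directly or that its amount in the cell changed.

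Gene counts in the 6 libraries ran from 8838296 to 10937251 and covered 8169 to 12240 genes with at least 1 count. Input 1 had the fewest genes, and Input 3 had the largest share of unaligned reads (16.9%, against 10.2 to 12.9% in the other 5). The Input libraries were less alike (Spearman correlations of 0.724 to 0.772 across genes) than the Nrp1-IP libraries (0.840 to 0.871). The cell type label was checked on 17 markers of noradrenergic neuroblastoma. Of these, 12 passed the filter on low counts, among them ISL1, GATA3, DBH and CHGB. PHOX2A, HAND2 and STMN2 were among those that did not, and TH had no count in any of the 6 libraries. ISL1 held 72.1% of this list's counts in Input and 92.7% in Nrp1-IP. Of 7 mesenchymal-like markers, 4 passed (CD44, COL1A1, FN1 and VIM), so passing the filter does not separate these states. No marker of blood, epithelial, endothelial, liver or glial cells passed the filter, and EPCAM, with 12 counts in Nrp1-IP 2, was the only one of them with a count.

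Of 42785 gene symbols, 26329 had no count in these 6 libraries and 6501 passed the filter on low counts and were tested. At an adjusted p under 0.05 in edgeR's quasi-likelihood test, 323 genes (4.97% of those tested) were called. Of these, 126 (1.94%) were higher and 197 (3.03%) were lower in Nrp1-IP than in Input. At an unadjusted p under 0.05 there were 748 higher and 657 lower genes. The called genes had a median log2 fold change of 2.24 among the higher and -2.45 among the lower, and the smallest difference called was 1.05. In all 323 the 3 CPM values of 1 group lay wholly above those of the other. Over all genes tested, the Nrp1-IP libraries lay wholly above the Input libraries for 1262 genes (19.4%) and wholly below for 823 (12.7%). CPM is the usual unit of counts scaled to a common library total, here corrected by TMM, a normalization that takes most genes as unchanged.

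The number of calls depended on every library. With the same test, no gene was called without Nrp1-IP 1 (1061 genes at an unadjusted p under 0.05, and 593 called by DESeq2), 7 without Nrp1-IP 2 and 7 without Nrp1-IP 3. There were 77 calls without Input 1 and 162 without Input 2. Without Input 3 there were 441, of which 330 were lower against 197 with all 6 libraries. None of the 323 genes changed sign in any of these 6 fits. The split also depended on the scaling: 39.0% of the calls were higher with TMM, 24.3% with RLE size factors and 67.8% with the library size alone, which raised the median log2 fold change of all genes by 0.38.

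**Figure D1:**
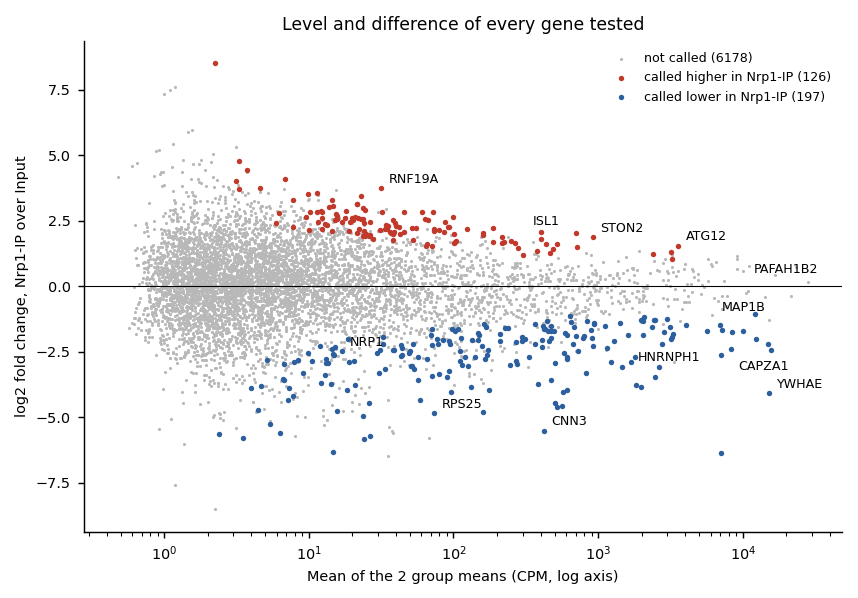
Each point is 1 of the 6501 genes tested, with its level as the mean of the 2 group means (CPM, log axis) against its log2 fold change in Nrp1-IP over Input; red and blue mark the 126 genes called higher and the 197 called lower. At the right, where counts are highest, most called genes lie below 0, such as YWHAE at -4.09, while PAFAH1B2 and MAP1B lie close to 0.

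The genes called lower held a large share of the reads of the lysate, and the genes called higher a small one. The 197 lower genes took 31.6 to 32.4% of all gene counts in each Input library and 9.49 to 10.1% in each Nrp1-IP library, with a median of 293 CPM in Input and 53.3 CPM in Nrp1-IP. The 126 higher genes took 0.925 to 1.19% of the counts in Input and 3.70 to 4.23% in Nrp1-IP, with medians of 11.4 and 57.1 CPM. There were 60 lower genes with over 1000 CPM in Input but 4 higher genes, and 57 higher genes with under 10 CPM in Input but 6 lower genes. These genes were chosen by the same contrast, so the shares describe the calls and test nothing.

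By the mean level over both groups, 41 of 187 genes over 1000 CPM (21.9%) were called lower and 4 (2.14%) higher. Between 10 and 100 CPM the order turned, with 82 of 1593 genes (5.15%) higher and 61 (3.83%) lower. Under 10 CPM, where counting error is largest, 14 and 18 of 4143 genes were called. CPM values are not corrected for transcript length, so they order read counts and not numbers of molecules.

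**Figure D2:**
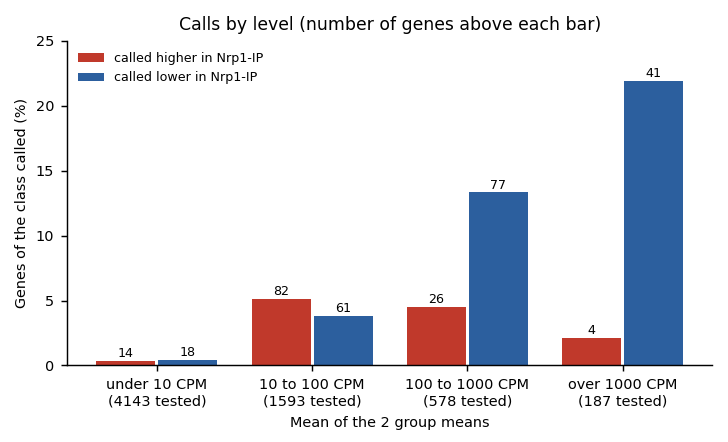
Bars give the percentage of the genes of each level class (mean of the 2 group means, in CPM) that were called higher (red) or lower (blue) in Nrp1-IP, with the number of genes above each bar. The share called lower runs from 0.434% under 10 CPM to 21.9% over 1000 CPM.

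Some of the genes with the most counts were the same in both groups. PAFAH1B2, a subunit of the platelet-activating factor acetylhydrolase that works with LIS1, held rank 1 in Nrp1-IP and rank 3 in Input, and USP22, a deubiquitinase of the SAGA complex, ranks 2 and 8. Neither was called: the PAFAH1B2 log2 fold change was 0.17 ± 0.24 (SE, adjusted p = 0.75), with overlapping libraries, and that of USP22 was 0.74 ± 0.25 (adjusted p = 0.14), without overlap. TMEM33, an endoplasmic reticulum membrane protein, had a log2 fold change of 0.42 ± 0.29 (adjusted p = 0.47). MAP1B, a microtubule-associated protein of growing axons, took 1.58 to 2.44% of the counts in Nrp1-IP and 1.87 to 2.25% in Input. Its log2 fold change was -0.38 ± 0.27 (adjusted p = 0.48) with TMM and 0.0016 with the library size alone.

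The other leading genes of Input were lower in the pulldown. YWHAE, which encodes the epsilon form of 14-3-3, a family of adaptors that bind phosphorylated proteins, had the most counts of all genes in Input and ranked 112 in Nrp1-IP. Its CPM was 31723, 24382 and 30187 in Input and 1711, 1818 and 1550 in Nrp1-IP, so the lowest Input library was far above the highest Nrp1-IP library. The mean was 17.0-fold lower and the log2 fold change was -4.09 ± 0.23 (adjusted p = 0.00087). ANP32E, a chaperone of the histone variant H2A.Z, had 31725, 26814 and 21070 CPM in Input and 5318, 5343 and 4065 CPM in Nrp1-IP. SET, a histone chaperone and inhibitor of protein phosphatase 2A, fell by 2.21 ± 0.28 on the log2 scale (adjusted p = 0.011).

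Among the 12 lower genes of lowest p was CNN3, an actin-binding calponin. CNN3 had 670, 644 and 1167 CPM in Input against 17.0, 24.2 and 13.1 CPM in Nrp1-IP, a 45.7-fold difference of means. The lowest Input library was far above the highest Nrp1-IP library.

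Splicing regulators were also in this group. TRA2A, an SR-like activator of exon inclusion, had 3219, 3292 and 4526 CPM in Input and 266, 282 and 226 CPM in Nrp1-IP. HNRNPH1, an hnRNP that binds G-rich RNA, had 12887, 12122 and 11707 CPM in Input and 1656, 2644 and 1580 CPM in Nrp1-IP. Both were called, with log2 fold changes of -3.83 ± 0.27 and -2.64 ± 0.28 (adjusted p = 0.0023 and 0.0063).

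Other lower genes of the 12 had varied roles. CDC42, a small GTPase that controls filopodia, was 6.52-fold lower and CAPZA1, a subunit of the actin capping protein, 5.24-fold lower. MTFMT, which formylates the initiator tRNA of mitochondria, was 15.6-fold lower, as was TWIST1, a transcription factor of the neural crest. EBP, a sterol isomerase of cholesterol synthesis, was 10.98-fold lower and PSMB4, a subunit of the proteasome core, 12.1-fold lower. Adjusted p-values of these genes ran from 0.0023 to 0.0063.

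The higher genes changed less in absolute reads and had larger adjusted p-values, from 0.011 to 0.017 for the 12 of lowest p. RNF19A, an RBR-type ubiquitin ligase, had 69.5, 52.1 and 55.0 CPM in Nrp1-IP and 4.17, 6.26 and 2.79 CPM in Input. It was 13.4-fold higher, with a log2 fold change of 3.73 ± 0.48. ISL1, a LIM homeodomain factor of sympathetic and motor neurons, had 1009, 1320 and 1064 CPM in Nrp1-IP against 281, 310 and 232 CPM in Input. STON2, an endocytic adaptor that sorts synaptotagmin, had 1344, 1501 and 1498 CPM in Nrp1-IP against 492, 365 and 328 CPM in Input. Both genes had over 1000 CPM on average in the pulldown. The 12 genes were picked among those whose groups do not overlap.

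CNOT1, the scaffold of the CCR4-NOT deadenylase that shortens poly(A) tails, was 7.22-fold higher, with 94.9, 168 and 116 CPM in Nrp1-IP and 17.6, 18.8 and 16.1 CPM in Input. SALL4, a stem cell zinc finger factor, was 11.02-fold higher. VPS13A, a lipid transfer protein at membrane contacts, was 11.7-fold higher, but its Input values (1.52 to 1.99 CPM) rested on 12 to 20 counts. Input counts were also at or under 28 in each library for ZFP37 and DCLRE1B, a zinc finger gene and a DNA repair nuclease. ANKIB1 and USP4, a ubiquitin ligase and a deubiquitinase, were 5.70-fold and 5.96-fold higher. DEPDC5, part of the GATOR1 complex that restrains mTORC1, was 5.29-fold higher and COG3, a subunit of the Golgi tethering complex, 7.19-fold higher.

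TAF7L, a germ-cell relative of a TFIID subunit, was the only called gene with no count in any Input library, and it is named here because its values were seen. It had 51, 53 and 53 counts in Nrp1-IP, which makes it at least 38.5-fold higher, on the TMM scale, against a floor of 3 counts over the Input group.

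**Figure D3:**
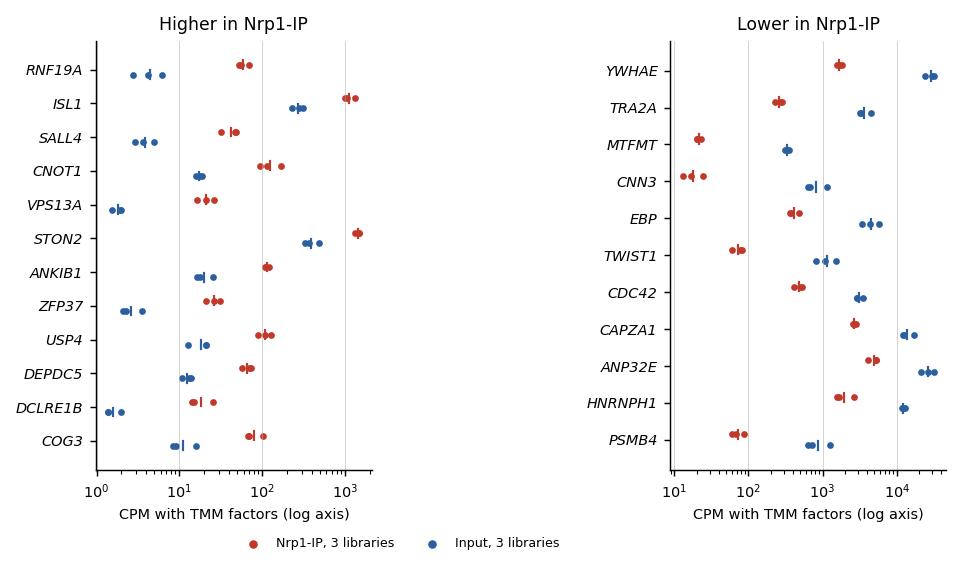
CPM with TMM factors (log axis) in each Nrp1-IP (red) and Input (blue) library for the genes of lowest p on either side, 12 of them higher and 11 lower; a dot is a library and a short line a group mean. Only genes whose groups do not overlap were eligible, and the Input values of the lower genes reach 31725, for ANP32E.

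The ribosomal protein genes called were all lower. Of 88 cytosolic ribosomal protein genes in the files, 50 passed the filter, none was called higher and 7 (14%) were called lower, among them RPL27, RPS25, RPS27A, RPS3A, RPL23 and RPL5, against 3.03% of all genes tested. The median log2 fold change of the 50 was -2.16, against 0.06 over all genes tested, and it was -1.80 with the library size alone and -2.40 with RLE. With 10 counts required in every library, 356 of all 3460 genes tested were lower. Of the ribosomal protein genes, 22 were tested with that filter, 7 were lower and the median was -1.17. A gene can pass the filter through the group where it is high, so this median and those below describe the genes that passed and not whole lists. Most ribosomal protein mRNAs are short and have pseudogene copies, and reads with more than 1 alignment were not counted, so their counts are partial.

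RPS25 had 202, 115 and 108 CPM in Input and 1.50, 5.83 and 7.38 CPM in Nrp1-IP. RPL27 had 32.9, 27.7 and 29.8 CPM in Input and 1.32, 0.547 and 1.40 CPM in Nrp1-IP, the latter from 6 to 19 counts. In RPS27A the difference was smaller, from 21.1 to 26.3 CPM in Input to 3.92 to 4.89 CPM in Nrp1-IP (log2 fold change -2.42 ± 0.43, adjusted p = 0.026). RPS14, a small subunit gene that the study examined elsewhere, had at most 2 counts in a Nrp1-IP library and 1 to 52 in Input, and did not pass the filter. The summed share of the list did not move with its members: it was 0.192 to 0.265% of gene counts in Nrp1-IP and 0.197 to 0.227% in Input. RPS20 held 39.3% of the list's counts in Nrp1-IP and 25.4% in Input, and it was not called (log2 fold change of 0.23, adjusted p = 0.73).

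Ribosomal protein mRNAs and those of elongation factors begin, as a class, with a C followed by a run of pyrimidines, the 5′ terminal oligopyrimidine tract through which mTORC1 controls their translation. The windows below run from 15 bases before to 15 bases after the annotated start, for the called members that the RefSeq promoter table (GRCh38.p14) holds. An unbroken run of at least 7 C or T letters that touches the 5 bases on either side of the start is in capitals. Where a gene had several annotated starts, the start with the longest run is shown.
RPS25 (chr11:119018329-119018358, minus strand): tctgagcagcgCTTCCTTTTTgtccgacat
RPS27A (chr2:55232663-55232692, plus strand): cccgtgggcctgcgcggcgTTCTTCCTTTT
RPS3A (chr4:151099613-151099642, plus strand): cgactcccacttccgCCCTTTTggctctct
EEF1A1 (chr6:73521018-73521047, minus strand): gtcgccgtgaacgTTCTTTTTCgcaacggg
RPL27 (chr17:42998404-42998433, plus strand): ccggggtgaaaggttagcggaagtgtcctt

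The window of RPL27 holds no such run, and RPL23 and RPL5 had no window in the table. RPS27A had 3 annotated starts, of which 66.7% held a run. Its run of 12 bases begins after the annotated start and passes the end of the window. The run of RPS27A begins with T and not C. That of EEF1A1 begins with T upstream of the annotated start, and the base at that start is C. Of the ribosomal protein genes tested with a window, 29 of 35 (82.9%) held the run at 1 or more annotated starts, against 21.4% of all genes tested with a window and 15.4% of all windows in the table. Of the called genes with a window, 39 of 146 lower genes (26.7%) and 23 of 102 higher genes (22.5%) held it, and 25.4% of the lower genes without the ribosomal proteins. This search was chosen after the values were seen, looked on the strand of the gene only, and carries no test.

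Elongation and initiation factors were mixed. EEF1A1, which brings aminoacyl-tRNA to the ribosome, had 71.5, 50.5 and 44.3 CPM in Input and 6.20, 2.92 and 7.75 CPM in Nrp1-IP. It was the 1 gene called (lower) of 12 elongation and termination factors tested, which is 8.33%. Of 44 initiation factors tested, 2 were higher and 4 lower (4.55% and 9.09%, against 1.94% and 3.03% of all genes tested). EIF4E, the cap-binding protein, was 5.51-fold lower, with 98.1 to 306 CPM in Input against 30.0 to 37.5 CPM in Nrp1-IP. EIF5A was 5.85-fold lower, but its reads cannot be told apart with certainty from those of the near-identical EIF5AL1, which was also called lower. EIF3H and EIF2S3 were the other lower genes. EIF2A and EIF3L were 3.22-fold and 3.03-fold higher, so subunits of the same factor, eIF3, were called in both directions.

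Aminoacyl-tRNA synthetases, which charge tRNAs, had 2 calls. Of 23 tested, IARS and TARS were called higher (8.70%, against 1.94% of all genes tested) and none lower, and the median log2 fold change was 0.85. IARS had 105, 81.6 and 69.0 CPM in Nrp1-IP and 10.1, 23.9 and 20.1 CPM in Input.

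Mitochondrially encoded mRNAs had very few reads in the pulldown. All 11 that passed the filter had log2 fold changes below 0, with a median of -5.62, and 2 (MT-ATP6 and MT-CO3, 18.2%) were called lower. MT-ATP6 had 131, 148 and 443 counts in Input and 1, 2 and 10 counts in Nrp1-IP. The list held 0.0046, 0.071 and 0.077% of the gene counts in Input and 8.2e-05, 0.00041 and 0.0038% in Nrp1-IP. Both groups thus varied widely, and Nrp1-IP 3 came close to Input 1. For 7 of the 11 genes all Nrp1-IP libraries lay below all Input libraries, against 12.7% of all genes tested. MT-ND1 had 52, 3140 and 631 counts in Input and was not called (adjusted p = 0.11). Nuclear genes for mitochondrial proteins differed less. Of 33 respiratory chain genes, COX8A and NDUFV3 were lower and none higher (median log2 fold change -0.57), and of 34 mitochondrial ribosomal protein genes MRPL19 was lower and none higher (median -0.63). The shares called lower were 6.06% and 2.94%, against 3.03% of all genes tested, so that of the mitochondrial ribosomal proteins was that of genes at large. COX8A, a cytochrome oxidase subunit, had 125, 142 and 89 counts in Input and 9, 7 and 7 in Nrp1-IP.

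Of 33 hnRNP and SR genes, TRA2A, HNRNPL and HNRNPH1 were lower and none higher (median log2 fold change -0.57), and the list took 1.93 to 2.44% of the counts in Input but 0.972 to 1.002% in Nrp1-IP. The 3 calls are 9.09% of the list, against 3.03% of all genes tested. Without HNRNPH1 and TRA2A the list took 0.734 to 0.895% in Input and 0.683 to 0.762% in Nrp1-IP, so the difference in share rested on those genes. With the library size alone, 2 hnRNP or SR genes were also called higher, as were 351 of all 6501 genes tested. Of 24 core spliceosome genes, the helicase DHX8 was higher and LSM5 lower (4.17% each way, against 1.94% and 3.03% of all genes tested). HNRNPA2B1 had 1 to 45 counts per Input library and 8 to 20 per Nrp1-IP library, and was not called (adjusted p = 0.66).

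Of 34 RNA-binding proteins of transport granules, PUM2, a repressor that binds 3′ ends of mRNAs, was 5.55-fold higher and G3BP1, a nucleator of stress granules, 16.7-fold lower. These are 2.94% each way, against 1.94% higher and 3.03% lower of all genes tested. The G3BP1 mean in Input rested on the library Input 3, with 378 CPM against 96.8 and 70.8 CPM in Input 1 and Input 2. Without Input 3 the log2 fold change of G3BP1 went from -4.06 to -3.11 (adjusted p = 0.022). STAU1, a double-stranded RNA-binding protein of dendritic transport, had 60.9, 45.6 and 55.6 CPM in Nrp1-IP and 16.3, 42.8 and 29.5 CPM in Input. Its libraries did not overlap, but the log2 fold change of 0.87 ± 0.44 did not pass the test (adjusted p = 0.31).

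Of 43 actin genes tested, 6 were lower (CAPZA1, RDX, MARCKS, CTTN, ACTB and DIAPH3), which is 13.95% against 3.03% of all genes tested. None was higher (1.94% of all), and the median log2 fold change was -0.76. The list's share was 1.56 to 1.83% in Nrp1-IP against 3.87 to 6.96% in Input. CAPZA1 and ACTB held 25.1% and 23.4% of the list's counts in Input, so these called genes weighed most in that share. In Nrp1-IP the largest parts were those of ARPC4 (34.3%) and CTTN (25.9%). RDX, which links actin to the membrane, had 75.4, 191 and 227 CPM in Input and 17.2, 13.1 and 14.6 CPM in Nrp1-IP. MARCKS, a membrane-bound actin cross-linker, was 8.54-fold lower. ACTB, beta-actin, named because its values were seen, had the lowest log2 fold change of all called genes, -6.35 ± 1.25, with 23675, 25286 and 285358 counts in Input and 1022, 1274 and 4027 in Nrp1-IP. Input 3 thus held more than 10 times the ACTB counts of the other Input libraries, with fewer gene counts in all. Without Input 3, ACTB had a log2 fold change of -4.20 (adjusted p = 0.0051), and that of MARCKS went from -3.09 to -2.60 (adjusted p = 0.0025).

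On the microtubule side, 1 of 34 tubulin, stathmin and motor genes was called higher (2.94%, against 1.94% of all genes tested). It was the kinesin subunit KIF3B (6.98-fold higher, from 8 to 24 counts per Input library). Of 16 microtubule-associated proteins, DPYSL2 was lower (6.25%, against 3.03% of all genes tested) and none higher, although the median log2 fold change of the list was 0.86. With the library size alone or with DESeq2 3 of them were higher, and without Input 3 there were 2. Over all genes tested, 351, 377 and 111 were higher with these settings. Small GTPases had CDC42 and ARF6 lower among 55 tested (3.64%, against 3.03% of all genes tested). Of 15 adhesion genes, CTNNB1 (beta-catenin, which links cadherins to actin and carries Wnt signals) was lower, which is 6.67%. It had 716, 663 and 685 CPM in Input and 232, 218 and 187 CPM in Nrp1-IP. The log2 fold change of CTNNB1 was -1.70 ± 0.25 (adjusted p = 0.017).

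Of 42 nuclear transport genes tested, NUP188, XPO6 and IPO5 were higher (7.14%, against 1.94% of all genes tested) and none lower (3.03% of all), with a median log2 fold change of 0.71. With DESeq2, 9 were higher and 5 lower, against 377 and 589 of all 6501 genes tested. Without Input 3, 43 were tested, and 4 were higher and 4 lower, with a median of 0.56. That fit called 111 higher and 330 lower of all 7331 genes tested. IPO5, an importin, had 115, 163 and 178 CPM in Nrp1-IP and 28.6, 47.2 and 18.2 CPM in Input. NUP188, a scaffold nucleoporin, was 17.0-fold higher, but from only 5, 5 and 9 counts in Input.

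Of 76 chromatin remodelers and histone modifiers, 4 were higher (ARID4B, KDM4A, BRD8 and CHD7) and 2 lower (SMARCE1 and ARID1B), and the median log2 fold change was 0.89. These are 5.26% higher and 2.63% lower, against 1.94% and 3.03% of all genes tested, so the lower share was near that of all genes. BRD8, a bromodomain subunit of the NuA4 complex, had 710, 707 and 525 CPM in Nrp1-IP and 254, 134 and 79.3 CPM in Input. With RLE size factors 1 of the chromatin genes was called higher and 2 lower, and without Input 3 the numbers were 3 and 4. Of 213 ZNF genes, 5 were higher (ZNF317, ZNF146, ZNF548, ZNF419 and ZNF69) and ZNF165 was lower, which is 2.35% higher against 1.94% of all genes tested. With the library size alone 18 ZNF genes were higher, with RLE 2 were higher and 4 lower, and without Input 3 there were 3 higher and 8 lower. Over all genes tested, 351 of 6501 were higher with the library size alone. With RLE 85 were higher and 265 lower of 6501, and without Input 3 the numbers were 111 and 330 of 7331.

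Protein turnover genes were called in both directions. Of 48 ubiquitin-conjugating enzymes and ubiquitin-specific proteases, USP4, USP13 and UBA2 were higher and USP2 lower (6.25% and 2.08%, against 1.94% and 3.03% of all genes tested, with a median log2 fold change of 0.50). With the library size alone 7 were higher and 1 lower, and with RLE 2 and 2. Over all 6501 genes tested, the numbers were 351 and 167 with the library size alone and 85 and 265 with RLE. Of 25 proteasome genes, PSMB2 was higher while PSMB4 and PSMD12 were lower (4.0% and 8.0%). Of 18 autophagy genes, ATG12 was higher (5.56%), a ubiquitin-like protein that is joined to ATG5. ATG12 had 5161, 5759 and 5126 CPM in Nrp1-IP and 2357, 1727 and 1420 CPM in Input, and it held 95.3% of the list's counts in Nrp1-IP, so the list's share of counts is close to that of 1 gene.

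In the secretory pathway, COPB1 (a coatomer subunit) and SEC61A1 (the channel into the endoplasmic reticulum) were higher, while STT3A (an oligosaccharyltransferase subunit) and COPG1 (another coatomer subunit) were lower among 41 tested. These are 4.88% each way, against 1.94% higher and 3.03% lower of all genes tested. COPG1 had 5 to 11 counts in each Nrp1-IP library. No gene of vesicle fusion (26 tested), of the lysosome and V-ATPase (22) or among snoRNA hosts and nuclear lncRNAs (9) was called. Of 112 solute carriers, SLC37A3 was higher and SLC6A15 lower, which is 0.893% each way, under the 1.94% and 3.03% of all genes tested. With the library size alone 6 solute carriers were higher and 1 lower, with RLE none and 3, and without Input 3 none and 5. Over all genes tested, the numbers were 351 and 167 of 6501 with the library size alone and 85 and 265 of 6501 with RLE. Without Input 3 they were 111 and 330 of 7331. Of 58 chaperones, only CALR was called (lower), which is 1.72%, under the 3.03% of all genes tested. CALR had 459, 268 and 2144 CPM in Input and a log2 fold change of -4.46, or -3.22 (adjusted p = 0.015) without Input 3.

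The lists that follow had at most 2 calls each and are given for the genes called, with 1.94% higher and 3.03% lower among all genes tested. In them, YWHAE and YWHAZ were lower among 6 14-3-3 genes, while YWHAH had a log2 fold change of 1.64 (adjusted p = 0.059). EBP and HMGCS1 were lower among 20 genes of sterol and fatty acid synthesis, PFKM, a phosphofructokinase, was higher among 10 of glycolysis, and HIST1H3G was lower among 6 histone genes. Input 3 was the highest Input library for YWHAZ and HMGCS1, whose log2 fold changes went from -3.11 to -2.61 and from -2.98 to -2.06 without it. KNTC1 and MCM7, of the kinetochore and the replicative helicase, were higher among 56 genes of replication and mitosis. Of 12 noradrenergic markers, ISL1 was higher and none lower, although the median log2 fold change was -1.09. None of 4 mesenchymal markers was called.

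Over the 36 lists with 3 or more genes tested, the median log2 fold change stayed above 0 in 8 and below 0 in 15 under TMM, RLE, DESeq2 size factors and the library size alone, and changed sign in 13. The 13 were the lists of replication and mitosis, the secretory pathway, the Nrp1 complex, axon guidance, adhesion, chaperones, the proteasome, small GTPases, snoRNA hosts, solute carriers, the core spliceosome, sterol synthesis and vesicle fusion, for which no direction is given. The median also changed sign under other alternatives for tubulins and motors, glycolysis and initiation factors (above 0 with 10 counts required in every library) and for the lysosome (below 0 without a filter).

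**Figure D4:**
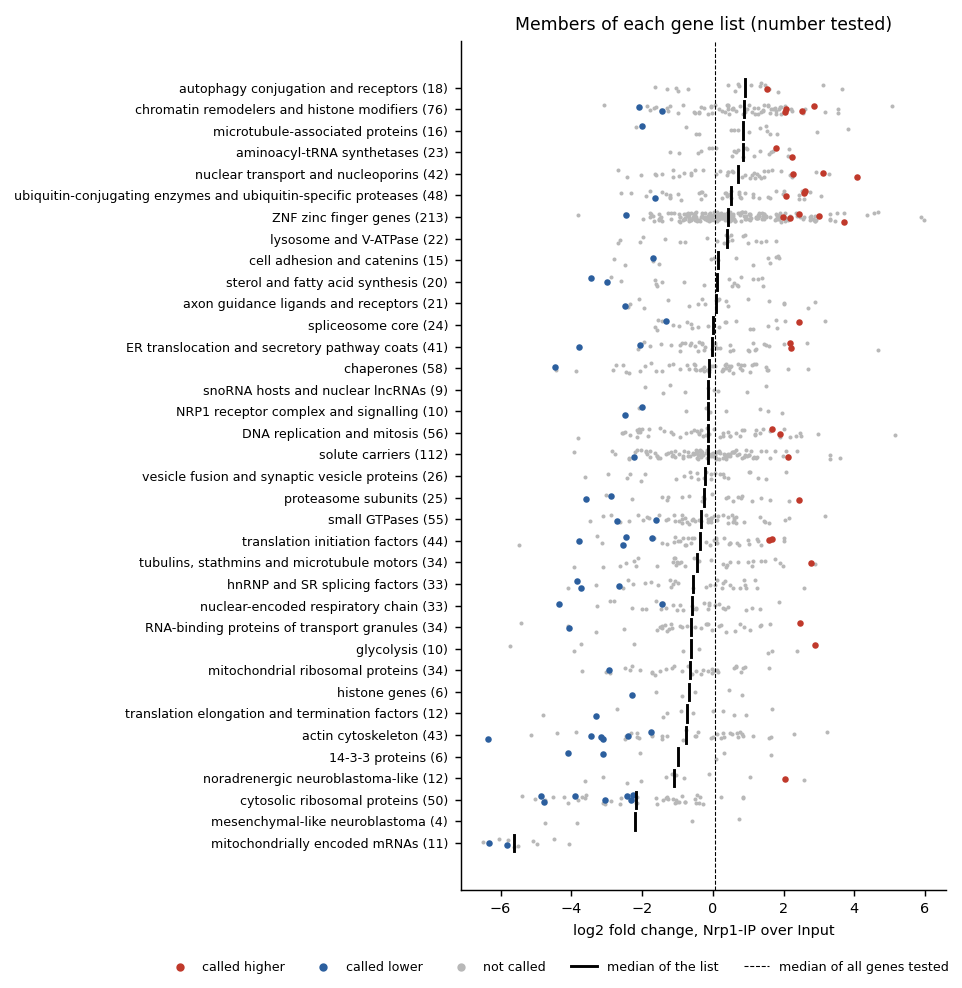
Each dot is a tested member of a gene list at its log2 fold change in Nrp1-IP over Input (red called higher, blue called lower, grey not called), with the list's median as a thick line and the median of all genes tested, 0.06, dashed. Lists are ordered by median, from the mitochondrially encoded mRNAs at -5.62 to the autophagy list at 0.90.

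The receptor and its partners were sparsely covered. NRP1 mRNA itself was lower in the pulldown of its protein, with 198, 320 and 234 counts in Input and 55, 83 and 36 in Nrp1-IP (log2 fold change -2.49 ± 0.52, adjusted p = 0.039). Of 25 genes of the Nrp1 complex and its signalling, 10 passed the filter and 2 (20%) were called lower, against 3.03% of all genes tested. DPYSL2, the collapsin response mediator CRMP2 that acts downstream of Sema3A on microtubules, was the other called gene, 4.02-fold lower with 22598, 21503 and 15148 CPM in Input and 6849, 3676 and 4209 CPM in Nrp1-IP. Its relative CRMP1 had 27.1 to 27.9 CPM in Input and 57.1 to 86.2 CPM in Nrp1-IP, without overlap, but did not pass the test (adjusted p = 0.074). SEMA3A, the ligand, had a log2 fold change of -2.08 ± 0.67 (adjusted p = 0.12), FARP1 of 1.96 ± 0.60 (adjusted p = 0.11), and PLXNA4, RAC1, DPYSL3, FARP2 and GIPC1 had adjusted p-values of 0.54 or more.

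NRP2, PLXND1, VEGFA, KDR and RRAS had no count in any of the 6 libraries, and the co-receptors PLXNA1, PLXNA2, PLXNA3 and L1CAM had 18 or fewer in each. FYN, CDK5, RND1, MICAL1, LIMK1 and GSK3B also failed the filter, with at most 27 counts in a library. DCC mRNA had no count in any of the 9 libraries, which in these 6 allows at most 0.379 CPM, the largest value that 3 counts take in any of them (Input 1). Of 21 axon guidance ligands and receptors tested, NRP1 was the only one called (lower, 4.76%, against 3.03% of all genes tested).

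By gene type, 122 of 5529 protein-coding genes (2.21%) were higher and 181 (3.27%) lower. Of 125 lncRNA genes, 3 were lower (2.4%) and none higher, and of 10 snoRNA genes 1 was lower (10%). Of 730 symbols that the RefSeq table does not hold, 2 were higher (0.274%) and 12 lower (1.64%). Over all genes tested the shares were 1.94% higher and 3.03% lower.

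Beside the DCC pulldown, which was compared with the same Input libraries, values were as follows. DCC-IP over Input gave 310 calls among 6223 genes tested (4.98%), and Nrp1-IP over DCC-IP gave 235 among 6439 (3.65%). Of the lower genes, YWHAE had log2 fold changes over Input of -4.09 for the Nrp1 pulldown and -2.72 ± 0.28 for the DCC pulldown, and CNN3 had -5.51 and -3.77. Of the higher genes, RNF19A had 3.73 and 4.395, ISL1 2.04 and 3.10, and CNOT1 2.85 and 3.73. STON2 was higher in Nrp1-IP (1.87) but had -0.79 in DCC-IP (adjusted p = 0.29), and ATG12 was higher in Nrp1-IP (1.54) and lower in DCC-IP (-2.30 ± 0.34, adjusted p = 0.0088). CTNNB1 was lower in Nrp1-IP (-1.70) and had 1.14 in DCC-IP (adjusted p = 0.12). MAP1B took 40.3 to 52.1% of the gene counts in DCC-IP, which leaves fewer reads there for every other gene.

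**Figure D5:**
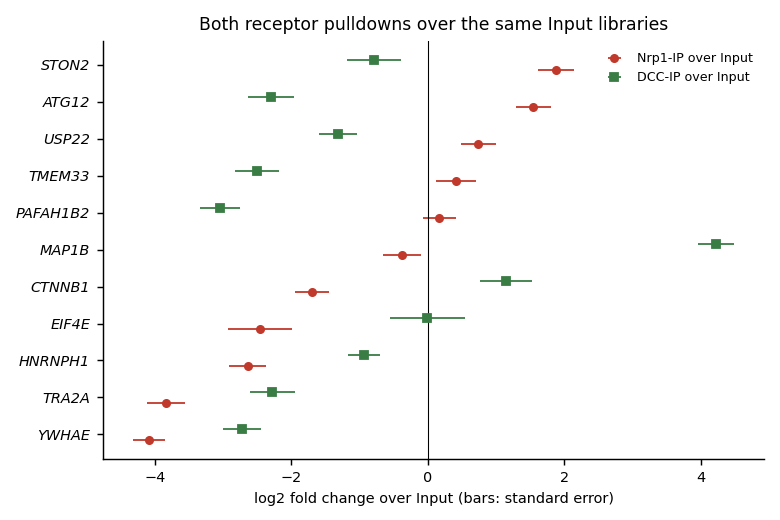
log2 fold changes over the same 3 Input libraries (points, with standard errors as bars) for the named genes that differed between the pulldowns when Nrp1-IP was tested against DCC-IP; red is Nrp1-IP and green DCC-IP. MAP1B stands at 4.22 with DCC and at -0.38 with Nrp1, and ATG12 on opposite sides of 0.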

How the data were processed

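Per the labels and the methods of the study, cDNA was amplified by a PCR method made for single cells, libraries were sequenced on a NextSeq 500, reads were aligned with HISAT2 2.1.0 to hg19, and the authors deposited raw read counts per gene symbol from HTSeq 0.11.0. The annotation and strand setting are not given in the sources used here. Without strand, reads of overlapping antisense genes cannot be told apart. The 5 summary lines were left out, so 30.1 to 31.3% of the reads of these libraries counted. The sources used here name no molecular identifiers, so limits from counts cover counting error only.

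Nrp1-IP and Input (n = 3 each) were compared in edgeR 4.0.16 (R 4.3.3) with filterByExpr (minimum count 10), TMM, glmQLFit and glmQLFTest, with Benjamini-Hochberg adjustment over all genes tested and calls at 0.05. The standard error is the size of the log2 fold change divided by the square root of F. The script was also run on counts simulated with the same relative spread for every gene, which does not represent a single deviating library such as Input 3. Gene types came from the RefSeq table of GRCh38.p14, which held 88.8% of the genes tested (410 by an older symbol). The 37 gene lists and the comparison were chosen with earlier results of these data known, so lists carry counts and medians only. A share of counts per list was set for an exact permutation test, which at 3 against 3 cannot go below 0.1 (two-sided), and no p is given for it. Named genes are the 12 of lowest p either way with no overlap, up to 3 called members per list and direction, the receptors and 6 genes of the study, the 5 genes with most counts per group and the Nrp1 list; genes named beyond this rule complete a count or were chosen after their values were seen. Alternatives covered test, scaling, filter, genes, a minimum fold, all 9 libraries, a replicate block and each library left out. A few genes that this rule or a list covers are not reported here.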

Additional observations from a re-analysis of the deposited data

Results flagged for a closer look

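In 11 named genes the effect over Input differed between the receptor pulldowns by a direct test of Nrp1-IP over DCC-IP (edgeR's quasi-likelihood test, Benjamini-Hochberg adjustment over 6439 genes, adjusted p from 0.00093 to 0.024). The same test called 235 of all 6439 genes (3.65%). Most named genes were chosen by their values in Nrp1-IP and Input, and the same Nrp1-IP libraries enter here, so the 11 are no neutral screen. Higher with Nrp1 than with DCC were ATG12, by 3.71 on the log2 scale, PAFAH1B2 by 3.10, TMEM33 by 2.77, STON2 by 2.55 and USP22 by 1.99. Lower with Nrp1 than with DCC were MAP1B (log2 fold change -4.75), CTNNB1 (-3.01), EIF4E (-2.47), HNRNPH1 (-1.82), TRA2A (-1.64) and YWHAE (-1.44). Of these genes PAFAH1B2, USP22, TMEM33 and MAP1B had not been called against Input with Nrp1. In each of the 11 genes the 3 Nrp1-IP libraries were compared with 3 DCC-IP libraries of which MAP1B took 40.3 to 52.1% of the counts, and its part in the other differences was not tested.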

How the results depend on the processing

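The 323 calls (126 higher, 197 lower) became 660 (311, 349) with the exact test, 711 (342, 369) with the likelihood ratio test and 966 (377, 589) with DESeq2, where 841 genes had no adjusted p. They became 350 (85, 265) with RLE, 518 (351, 167) with the library size alone, 882 (238, 644) without a filter, 632 (276, 356) with 10 counts required in every library, 125 (22, 103) with all 9 libraries in one fit and 55 (7, 48) with a minimum log2 fold change of 1. Protein-coding genes alone gave 302 (114, 188). None of the 323 genes was called in the opposite direction under any of these. With each library left out, edgeR gave 0 to 441 calls (0 to 111 higher, 0 to 330 lower). DESeq2 with a library left out, an alternative chosen after the data were seen, gave 593 (157, 436), 563 (156, 407) and 864 (217, 647) without Nrp1-IP 1, 2 and 3, and 937 (321, 616), 962 (412, 550) and 1140 (523, 617) without Input 1, 2 and 3. Of these, 196 or 197 were among the 197 lower and 113 to 126 among the 126 higher genes. The cause of these shifts was not tested. The methods of the study name no pairing, so the main fit had no replicate block. Same-numbered Nrp1-IP and Input libraries deviated together with r = 0.24, -0.0027 and 0.39. Those of numbers 1 and 3 were the highest of all pairs, while number 2 did not match best, so pairing was left undecided. With a replicate block there were 556 calls (239, 317), 124 and 195 of them among the calls without it.

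Among the named genes, only some that were not called changed sign under an alternative. HNRNPA2B1 had a log2 fold change of 0.17 without Input 3. MAP1B had 0.0016 with the library size alone. PAFAH1B2 had -0.0164 with DESeq2, -0.0164 with RLE and -0.17 without Input 3. PLXNA4 had -0.23 with the replicate block, -1.57 without Nrp1-IP 1, -0.000319 without Input 2 and -0.0199 without Input 3. DPYSL3 had 1.43 without Input 2. RAC1 had 0.16 with the library size alone and 0.0029 without Input 2. GIPC1 had 0.22 with the library size alone, 0.36 with the replicate block, 0.11 without Nrp1-IP 1 and 0.60 without Input 2. With each library left out, the values ran from -1.80 to 0.17 for HNRNPA2B1, from -1.57 to 1.09 for PLXNA4, from -4.26 to 1.43 for DPYSL3, from -0.60 to 0.0029 for RAC1 and from -0.75 to 0.60 for GIPC1. A floor of 3 counts corresponds to 0.220 to 0.379 CPM (with TMM) in these libraries, and below about 10 CPM few differences could be called.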
